A study of Homo sapiens with 34 samples.

Results

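DE(a)-LM cells were started toward definitive endoderm and then moved to lateral mesoderm (LM) medium. They were compared with MPS-LM cells, which followed the standard route to lateral mesoderm. The comparison covers 4 of the 34 RNA sequencing libraries of the series, 2 of DE(a)-LM and 2 of MPS-LM, chosen by their sample labels alone, and it extends over all genes. All libraries came from ESI017, an established human embryonic stem cell line, without any genetic change named for these samples. The DE(a) medium of day 1 held activin at 100 ng/ml and CHIR99021, an activator of WNT signaling, at 2 µM. The MPS (middle primitive streak) medium combined 6 µM CHIR99021 and 20 ng/ml bFGF with 40 ng/ml BMP4, and its activin dose was 30 ng/ml. On day 2 both were given the same LM medium and collected at 48 h. It held BMP4 at 30 ng/ml, A8301, which blocks activin and nodal receptors, at 1 µM and IWP2, which blocks WNT secretion, at 4 µM. Also used are the same routes at 24 h, after DE(b) medium (activin again at 100 ng/ml, with the BMP receptor blocker LDN193189 at 250 nM) and after PM medium for paraxial mesoderm (bFGF at 20 ng/ml, LDN193189 at 250 nM and A8301 at 1 µM), and an undifferentiated control. The study's list of media gives no CHIR99021 for PM medium. Elsewhere it describes WNT activation as part of its paraxial protocol and names CHIR99021 in the standard PM treatment. The PM libraries may therefore have received it, which remains uncertain. APS-LM began in anterior streak medium with activin at 30 ng/ml, bFGF at 20 ng/ml and CHIR99021 at 4 µM. PPS-LM began in posterior streak medium with bFGF at 20 ng/ml, BMP4 at 40 ng/ml and CHIR99021 at 6 µM, without activin. Both then had the same LM medium. The control was labeled mTeSR Plus at 48 h. DE(a)-LM and MPS-LM differ in the first day alone, and the separate effects of activin dose, BMP4, bFGF and CHIR99021 on that day cannot be told apart. The cells are a monolayer culture model, and each library pools many cells.

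In the embryo, cells that leave the anterior primitive streak under high nodal signaling form definitive endoderm, marked by SOX17 and FOXA2, while cells that leave the middle and posterior streak under BMP signaling form lateral mesoderm, marked by HAND1 and FOXF1. Leaving the streak involves an epithelial-to-mesenchymal transition (EMT), in which E-cadherin (CDH1) and other junction genes are turned down by repressors such as SNAI1, SNAI2 and ZEB2. HOX genes, which lie in 4 clusters and mark position along the head-to-tail axis, are switched on in the streak under WNT, BMP and FGF signals, in part through the CDX factors.

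The libraries of DE(a)-LM held 15705663 and 20947603 estimated counts and those of MPS-LM 17192526 and 21076327. Levels are given as CPM, the estimated count per 1e+06 counts of the library, replicate 1 first, and are not corrected for gene length. Fold changes are on the log2 scale with their standard error (SE). The test was the quasi-likelihood F-test in edgeR, from 1 fit over all 34 libraries. P-values were adjusted by Benjamini-Hochberg over 17895 tested genes, with 0.05 as the threshold for calling a gene. The study calls the 2 replicates biological and does not say how they were kept apart, so the p-values measure the spread between these samples. Across tested genes, the replicate 1 difference and the replicate 2 difference had a Pearson r of 0.713 on log2(CPM + 1), given as a description across genes, which are not independent replicates. All 5 defining markers of lateral mesoderm were at 1 CPM or more in each of the 4 libraries, with summed levels of 473 and 981 CPM in DE(a)-LM and 2027 and 2430 CPM in MPS-LM. The 5 endoderm markers summed to 139.7 and 103 CPM in DE(a)-LM, to 0.295 and 3.90 CPM in MPS-LM, and to 4943 and 4689 CPM in the standard endoderm condition DE(a)-DE(b). In bulk libraries, fewer cells of a type and less RNA per cell cannot be told apart, which touches every level below.

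DE(a)-LM differed from MPS-LM in 2570 genes, 14.4% of those tested. Of these, 1627 genes (9.09% of those tested) were higher in DE(a)-LM and 943 (5.27%) were lower, and 4442 genes had an unadjusted p under 0.05. The higher genes had a median log2 fold change of 1.76, with 722 of them at 2 or more, and the lower genes a median of -1.11, with 220 at -2 or less. Where the mean reached 10 CPM in either condition, the split was nearer to even, with 905 genes higher and 809 lower. The 2 libraries of DE(a)-LM lay on the same side of both MPS-LM libraries for all 1627 higher genes and for 937 of the lower genes, against 50.3% of all tested genes. The calls came from these same libraries, so their separation is a description and adds no support. Without replicate 1 of DE(a)-LM 1521 genes were called, and without replicate 2 of MPS-LM 1470.

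**Figure D1:**
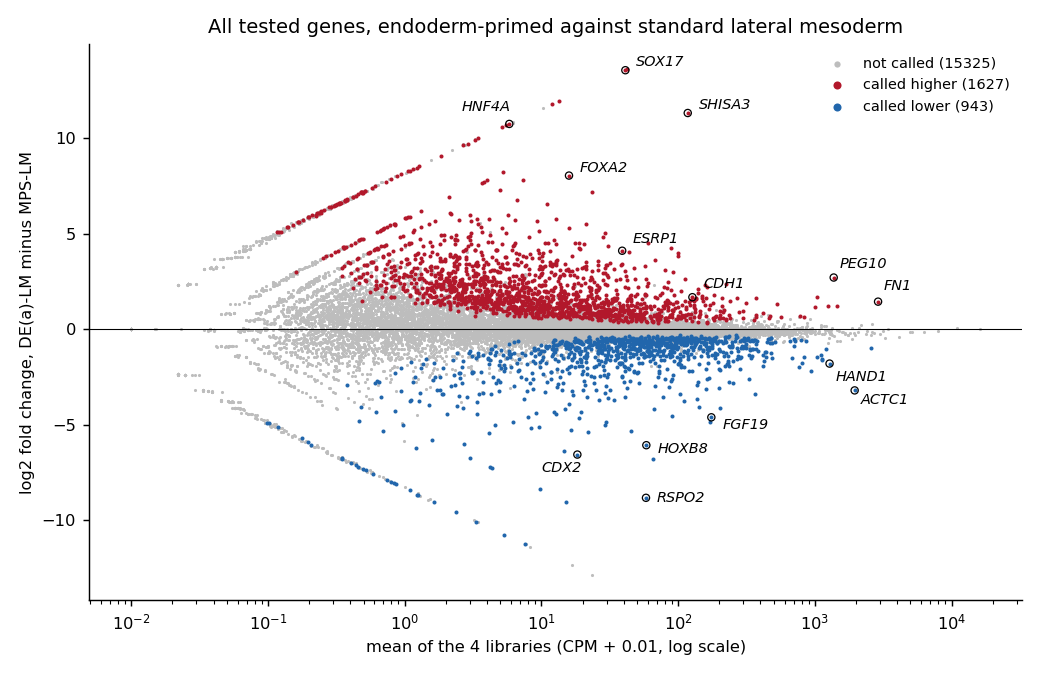
Each point is 1 of 17895 tested genes, with the mean of the 4 libraries in CPM plus 0.01 on a log axis against the log2 fold change of DE(a)-LM minus MPS-LM. Red points were called higher (1627) and blue points lower (943), grey points were not called, and circled genes are described in the text. The straight rows of points at the upper and lower left are genes with 0 counts in one of the groups, whose fitted fold change depends on the prior count.

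Read by gene list, the highest shares called were those of definitive endoderm genes and epithelial junction genes among those higher in DE(a)-LM, and of HOX genes among those lower. Of 20 endoderm genes 15 were called higher and 0 lower, of 34 epithelial genes 23 were higher and 3 lower, and of 37 HOX genes 0 were higher and 25 lower. Lateral and cardiac mesoderm genes were called lower in 7 of 22 cases and higher in 1. The lists were written with earlier results of these data known and their shares are descriptions beside the 9.09% and 5.27% of all tested genes.

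**Figure D2:**
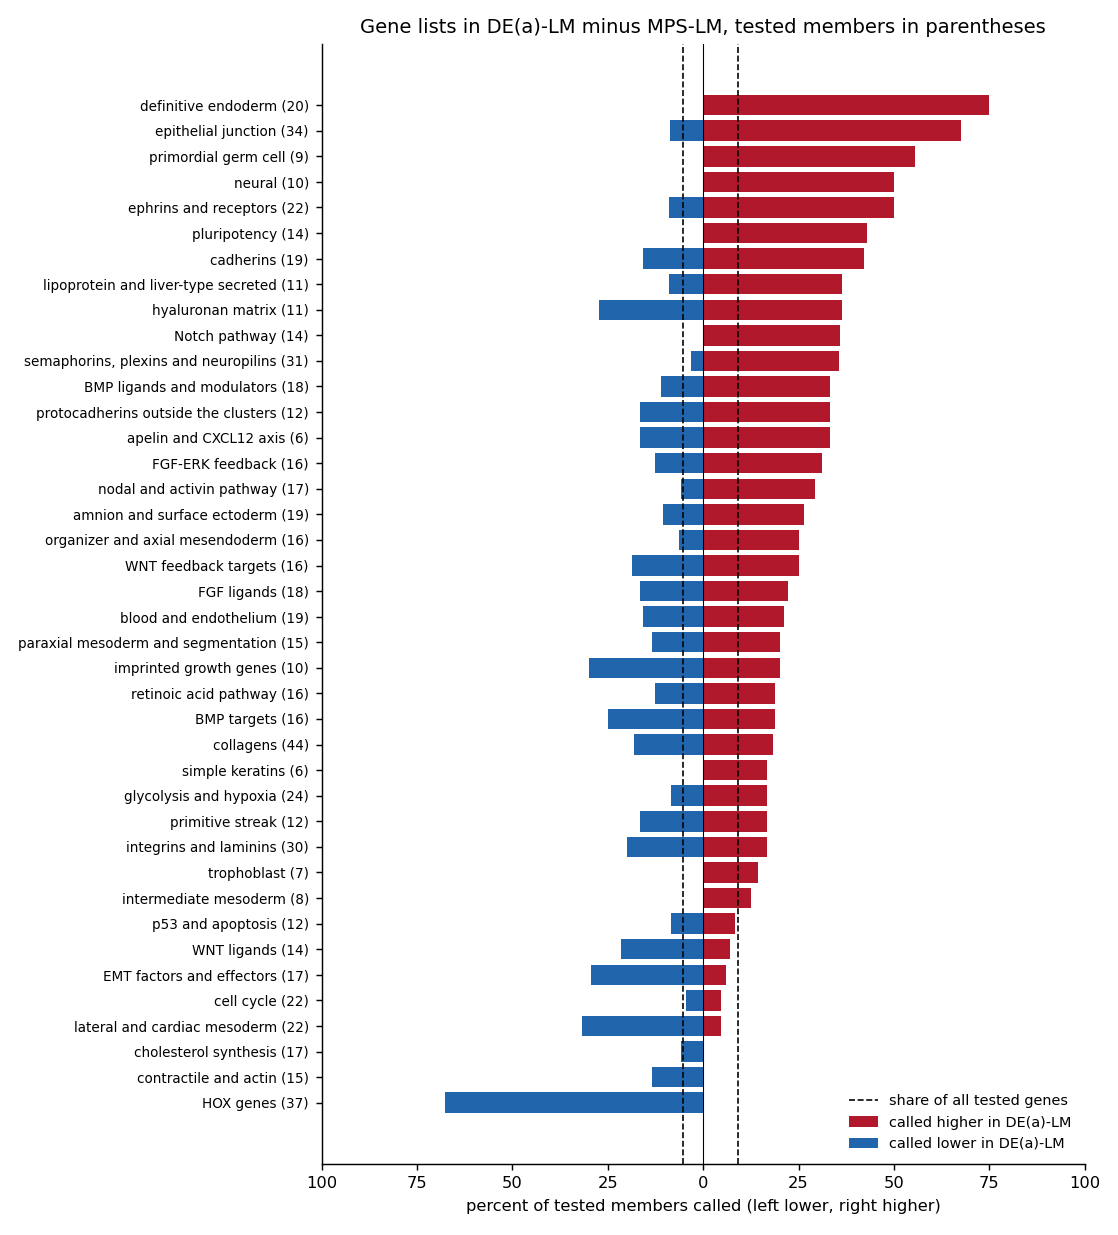
Bars give the percent of tested members of each gene list called higher (red, to the right) or lower (blue, to the left) in DE(a)-LM than in MPS-LM, for lists with at least 5 tested members, whose number is in parentheses. Dashed lines mark the shares of all tested genes, 9.09% higher and 5.27% lower. Endoderm (15 of 20) and epithelial junction genes (23 of 34) reach farthest right and HOX genes (25 of 37) farthest left.

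Lateral mesoderm genes rose from 24 h in DE(a)-LM, but several stayed below their MPS-LM level. HAND1 (ENSG00000113196, chr5:154474972-154478227, GRCh38), a transcription factor of lateral and extraembryonic mesoderm, stood at 388 and 818 CPM in DE(a)-LM and 1789.5 and 2127 CPM in MPS-LM. Both DE(a)-LM libraries were below both MPS-LM libraries, replicate 1 more than replicate 2, and the log2 fold change was -1.80 (SE 0.48, edgeR adjusted p = 0.0137). The undifferentiated control held 0.181 and 0 CPM of HAND1. Its relative HAND2, a factor of heart and limb mesoderm, stood at 8.26 and 22.5 CPM in DE(a)-LM and 56.8 and 75.8 CPM in MPS-LM. Its log2 fold change was -2.20 (SE 0.56, edgeR adjusted p = 0.0106). PRRX1, a factor of limb and body wall mesenchyme, was near absent at 0 and 0.668 CPM in DE(a)-LM against 21.4 and 36.2 CPM in MPS-LM. This was the largest fall of the list at -6.37 (SE 1.08, edgeR adjusted p = 0.000388). TBX3, a T-box factor of the early heart field, was at 186 and 262 CPM in DE(a)-LM and 462 and 436 CPM in MPS-LM. Here the gap was narrower, with a log2 fold change of -1.10 (SE 0.24, edgeR adjusted p = 0.00257).

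BMP4, which lateral mesoderm makes itself, was at 100.1 and 152 CPM in DE(a)-LM and 305 and 311 CPM in MPS-LM, with a log2 fold change of -1.39 (SE 0.35, edgeR adjusted p = 0.00796). The growth factor receptor gene PDGFRA (log2 fold change -1.46, edgeR adjusted p = 0.0201) and the endoderm and heart factor GATA6 (log2 fold change -0.91, edgeR adjusted p = 0.0417) complete the 7 that fell. FOXF1, a factor of the splanchnic layer, stood at 20.6 and 40.4 CPM in DE(a)-LM and 109.7 and 108 CPM in MPS-LM, both DE(a)-LM libraries being lower. Its log2 fold change of -1.93 (SE 0.64, edgeR adjusted p = 0.0515) was not called. It was called when only the 4 libraries were fitted (edgeR adjusted p = 0.0131), with a replicate block (0.0357), with identifiers summed (0.0312) and without the filter on low counts (3.12e-15). FOXF1 stayed uncalled with other size factors, with DESeq2 and in every fit that left out 1 of the 4 libraries. TBX20, NKX2-5 and GATA4, which also act in the heart, did not pass the test, and the libraries of the groups overlapped for NKX2-5 and GATA4. TBX20 was at 14 and 34 CPM in DE(a)-LM and 37.3 and 61.6 CPM in MPS-LM. NKX2-5 was at 8.03 and 21.5 CPM in DE(a)-LM and 10.8 and 33 CPM in MPS-LM. GATA4 was at 41.5 and 65.9 CPM in DE(a)-LM and 33.7 and 57.6 CPM in MPS-LM. ISL1, a factor of the second heart field that is also among the amnion markers below, was at 42.6 and 59.4 CPM in DE(a)-LM and 10.8 and 27.5 CPM in MPS-LM. Its difference of 1.29 (SE 0.58, edgeR adjusted p = 0.16) was not called either. SMARCD3, a chromatin remodeling subunit of cardiac progenitors, was the member called higher, at 42.9 and 41.2 CPM in DE(a)-LM and 19.2 and 18.8 CPM in MPS-LM (log2 fold change 1.04).

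Most of these calls depended on replicate 1 of DE(a)-LM, in which the genes were lowest. Without replicate 1 of DE(a)-LM, 1 of the 22 genes was called lower, namely PRRX1. The edgeR adjusted p was then 0.198 for HAND1, 0.148 for HAND2, 0.137 for BMP4, 0.0763 for TBX3, 0.257 for PDGFRA and 0.352 for GATA6. Without replicate 2 of MPS-LM, 4 genes were called lower and the adjusted p of HAND1 from edgeR was 0.0841, of HAND2 0.0801 and of GATA6 0.178. Without replicate 1 of MPS-LM, 5 were called lower, PDGFRA (0.157) and GATA6 (0.089) no longer among them by the edgeR adjusted p. DESeq2 gave HAND2 an adjusted p of 0.064, and with only the 4 libraries fitted by edgeR that of PDGFRA was 0.0515.

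Set against the cells of the same route at 24 h, before LM medium, the lateral program rose in both routes. From 24 h to 48 h, 16 of the 22 genes rose and 1 fell after DE(a), with a median log2 change of 2.99. Of all tested genes 32.2% changed on that route, 17% up and 15.2% down. After MPS 13 of the 22 rose and 2 fell, against 14.4% and 16.9% of all tested genes. HAND1 rose from 1.87 and 0.644 CPM in the DE(a)-24h libraries, a log2 change of 8.79. It rose from 164 and 79.6 CPM in the MPS-24h libraries, a change of 3.99. At 24 h its difference between the routes was -6.60 (SE 0.66, edgeR adjusted p = 4.96e-07), so the difference in LM was smaller by 4.80 log2 units (edgeR adjusted p = 0.000333). TBX3 and BMP4 narrowed in the same way, by 3.86 (edgeR adjusted p = 3.47e-07) and 3.68 (6.62e-05). For the whole list, 9 genes were lower and 1 higher in DE(a) at 24 h, and the change in the difference was called positive for 8 genes and negative for 0, against 6.26% and 2.49% of all tested genes. ACTC1, cardiac actin, an early contractile gene outside this list, did not narrow by the test (change in the difference -1.49, edgeR adjusted p = 0.158), at 107 and 85.7 CPM against 381 and 249 CPM at 24 h. In LM medium it was at 225 and 587 CPM in DE(a)-LM and 3331 and 3676 CPM in MPS-LM, a log2 fold change of -3.21 (SE 0.47, edgeR adjusted p = 5.42e-05).

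**Figure D3:**
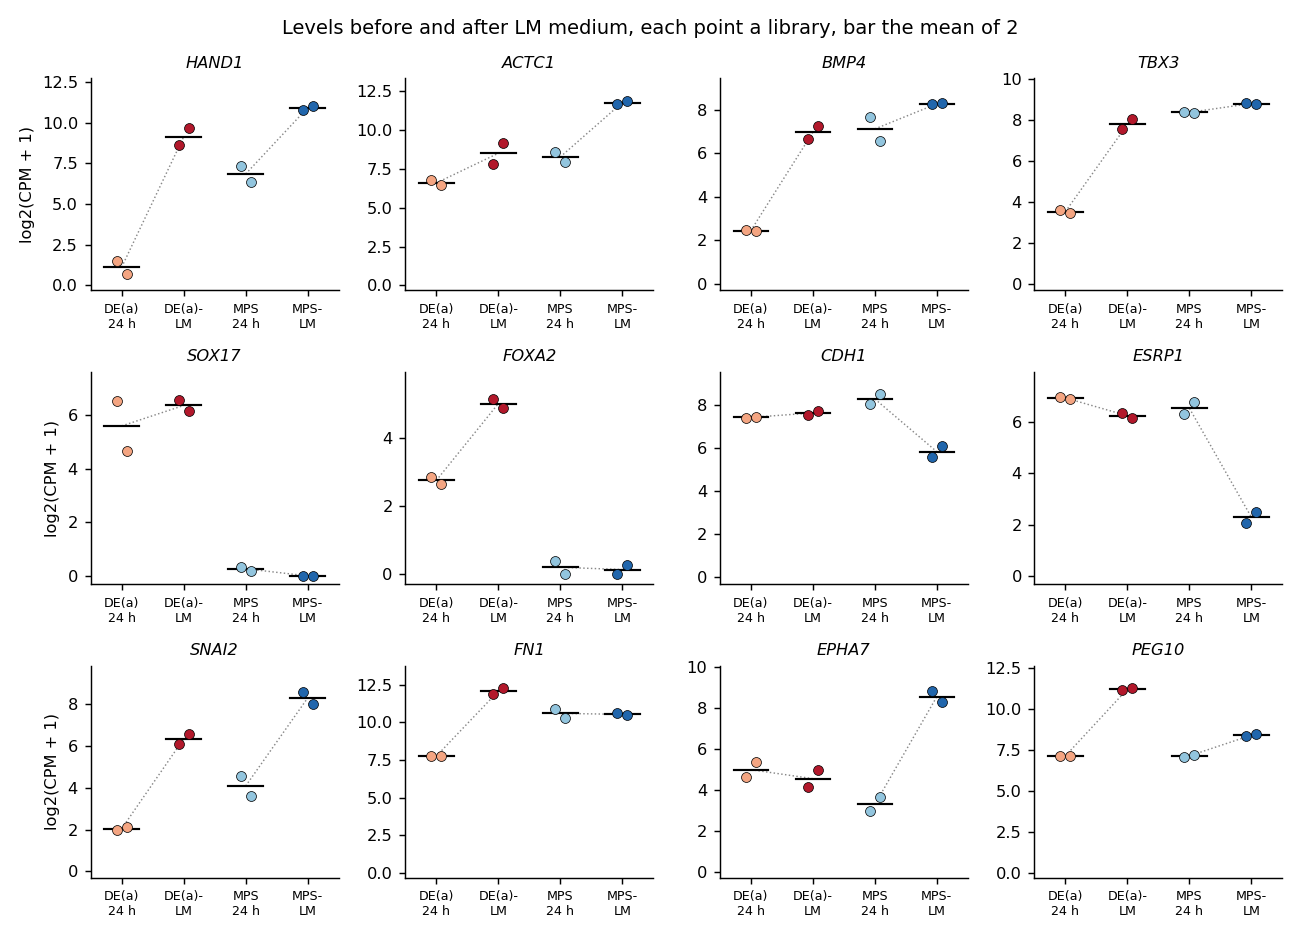
Levels of 12 genes as log2(CPM + 1) in the DE(a) and MPS libraries at 24 h and after LM medium, each circle a library and each bar the mean of 2, with a dotted line from 24 h to LM within a route. HAND1, BMP4 and TBX3 climb steeply after DE(a) to below their MPS-LM level, CDH1 and ESRP1 fall steeply after MPS, and SOX17 and FOXA2 are near 0 in MPS-LM.

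Endoderm genes had the highest share called higher, 15 of 20. SOX17, a factor needed for endoderm, had 94.8 and 69.6 CPM in DE(a)-LM and 0 counts in both MPS-LM libraries. It was at least 1026-fold higher, a bound set by 3 counts over the group. FOXA2, a pioneer factor of endoderm and the node, was at 34.6 and 28.8 CPM in DE(a)-LM and 0 and 0.19 CPM in MPS-LM, a log2 fold change of 8.05 (SE 1.34, edgeR adjusted p = 0.000282). HNF4A, a factor of liver and visceral endoderm, was at 11.9 and 11.3 CPM with 0 in both MPS-LM libraries, at least 148-fold higher. EOMES, a T-box factor of the streak that acts upstream of SOX17, remained at 15.7 and 10.4 CPM against 0.174 and 0.0474 CPM, a log2 fold change of 6.75 (SE 1.11, edgeR adjusted p = 0.000167).

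These genes had different histories on the DE(a) route. SOX17 was already at 91.7 and 24.3 CPM at 24 h, and its level did not change by the test in LM medium (log2 change 0.38, edgeR adjusted p = 0.788). EOMES, by contrast, fell from 666 and 631 CPM at 24 h, by 5.77 log2 units. HNF4A was near 0 at 24 h, at 0.0518 and 0 CPM, and rose in LM medium after DE(a). In the standard endoderm condition DE(a)-DE(b), SOX17 stood at 330.4 and 439.6 CPM, and FOXA2 at 86 and 125 CPM. HNF4A stood there at 39.4 and 33 CPM. The surface marker CXCR4 was at 5.81 and 3.54 CPM in DE(a)-LM and 0.237 and 3.61 CPM in MPS-LM with overlapping libraries. It was not called (log2 fold change 1.06, edgeR adjusted p = 0.359), although without replicate 2 of MPS-LM it was (edgeR adjusted p = 0.0132). The nodal inhibitor CER1 stood at 2.94 and 0.382 CPM in DE(a)-LM and 0.0582 and 0 CPM in MPS-LM, against 4296 and 3886 CPM in DE(a)-DE(b). HHEX stood at 1.53 and 0.716 CPM in DE(a)-LM and 0 and 0.0949 CPM in MPS-LM, against 62.5 and 84.1 CPM in DE(a)-DE(b), and with only the 4 libraries fitted it was not called (edgeR adjusted p = 0.0592). CER1 lost its call without replicate 1 of DE(a)-LM (edgeR adjusted p = 0.483) or without replicate 1 (0.138) or 2 (0.285) of MPS-LM. Between 11 and 15 of the 20 genes were called higher in each fit that left out 1 library, not always the same ones.

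Genes of lipoprotein and serum protein production, which liver and yolk sac endoderm share, were tested in 11 cases. Of these, 4 were called higher and 1 lower, against 9.09% and 5.27% of all tested genes. With any 1 of the 4 libraries left out, 2 were higher and 0 lower. APOB, the core protein of lipoproteins, was at 10.7 and 18.6 CPM in DE(a)-LM and 1.98 and 1.09 CPM in MPS-LM (log2 fold change 3.17, SE 0.51, edgeR adjusted p = 0.000127). The uptake receptor CUBN was at 3.33 and 3.72 CPM in DE(a)-LM and 0.64 and 0.664 CPM in MPS-LM. AFP, a serum protein of fetal liver and yolk sac, went the other way at 0.382 and 0.477 CPM in DE(a)-LM and 3.97 and 5.18 CPM in MPS-LM (log2 fold change -3.50, edgeR adjusted p = 0.0298). It was not called in any fit that left out 1 of the 4 libraries (adjusted p from 0.0657 to 0.195). PAX2, a factor of intermediate mesoderm, stood at 3.18 and 4.16 CPM in DE(a)-LM and 0.582 and 3.75 CPM in MPS-LM (log2 fold change 0.61, edgeR adjusted p = 0.602), though it was called without replicate 2 of MPS-LM (edgeR adjusted p = 0.0208).

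Most epithelial genes were higher, tight junction and polarity genes among them, while no desmosome gene of the list was called higher. CDH1 (ENSG00000039068, chr16:68737292-68835537, GRCh38), which encodes E-cadherin, stood at 186 and 209 CPM in DE(a)-LM and 46.3 and 67.4 CPM in MPS-LM, below the 303 and 299 CPM of the control. Its log2 fold change was 1.68 (SE 0.26, edgeR adjusted p = 0.000111). EPCAM, an epithelial adhesion molecule, was at 134 and 109.6 CPM in DE(a)-LM and 36.3 and 53.3 CPM in MPS-LM (log2 fold change 1.32). Among tight junction genes, CLDN6 was at 265 and 231 CPM in DE(a)-LM and 67.5 and 79.1 CPM in MPS-LM. CLDN7 was at 22.8 and 13.5 CPM in DE(a)-LM and 2.85 and 3.0 CPM in MPS-LM. OCLN was at 19.4 and 15.4 CPM in DE(a)-LM and 2.96 and 5.02 CPM in MPS-LM. Each of these was called higher, and the groups did not overlap. The largest differences of the list were those of the tight junction gene CLDN3 (log2 fold change 5.65) and of CRB3 (log2 fold change 5.06), a protein of the apical polarity complex. CLDN3 was at 7.38 and 4.6 CPM in DE(a)-LM and 0.0582 and 0.142 CPM in MPS-LM. CRB3 was at 5.74 and 6.09 CPM in DE(a)-LM and 0.174 and 0.142 CPM in MPS-LM. PATJ, a scaffold of the same complex, was at 57.3 and 56.1 CPM in DE(a)-LM and 14.3 and 14.8 CPM in MPS-LM, with a log2 fold change of 1.85 (SE 0.19, edgeR adjusted p = 7.89e-07).

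Regulators of the epithelial state moved with them. ESRP1, which directs epithelial splicing, was at 79.4 and 68.6 CPM in DE(a)-LM and 3.23 and 4.62 CPM in MPS-LM, a log2 fold change of 4.11 (SE 0.30, edgeR adjusted p = 1.86e-08). GRHL2 and OVOL2, transcription factors that maintain epithelia, were both higher. GRHL2 was at 39.1 and 35.9 CPM in DE(a)-LM and 3.57 and 3.56 CPM in MPS-LM (log2 fold change 3.28). OVOL2 was at 10.5 and 9.42 CPM in DE(a)-LM and 0.0582 and 0.712 CPM in MPS-LM (log2 fold change 4.49). The membrane protease ST14 and the trafficking GTPase RAB25 were higher by 3.76 and 3.34 log2 units. The 3 members that fell were junction genes as well, 2 of desmosomes and a tight junction scaffold. The desmosome gene DSP was at 213 and 247 CPM in DE(a)-LM and 418 and 466 CPM in MPS-LM (log2 fold change -1.05, SE 0.27, edgeR adjusted p = 0.00975). PKP2, also of desmosomes, was at 89.4 and 129 CPM in DE(a)-LM and 235 and 206 CPM in MPS-LM (log2 fold change -1.11). TJP1, the scaffold, was at 62.5 and 72.7 CPM in DE(a)-LM and 109 and 124 CPM in MPS-LM (log2 fold change -0.90). TJP1 has 2 identifiers, so its value is uncertain. DSP and TJP1 were not called without replicate 1 of DE(a)-LM (edgeR adjusted p = 0.111 and 0.178) or without replicate 2 of MPS-LM (0.0652 and 0.143). Between 20 and 22 genes of the list were called higher in each fit that left out 1 library.

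The difference was not there at 24 h, and most of these transcripts fell in LM medium after MPS. At 24 h the list had 1 gene higher and 3 lower in DE(a), against 3.35% and 5.62% of all tested genes. CDH1 then stood at 169 and 172 CPM in DE(a)-24h against 264 and 362 CPM in MPS-24h, the opposite order (log2 fold change -0.87 (SE 0.26, edgeR adjusted p = 0.0348)). From 24 h to 48 h, 21 of 34 genes fell and 2 rose after MPS, with a median log2 change of -1.79. After DE(a) 10 fell and 7 rose, with a median of -0.23. Of all tested genes 16.9% fell and 14.4% rose after MPS, and 15.2% fell and 17% rose after DE(a), so the 7 that rose were near the share of all genes. CDH1 changed by -2.46 after MPS (edgeR adjusted p = 3.87e-07) and by 0.09 after DE(a) (0.831), ESRP1 by -4.54 and -0.82. The change in the difference from 24 h was called positive for 19 of 34 genes and negative for 0, against 6.26% and 2.49% of all tested genes. For CDH1 it was 2.55 (edgeR adjusted p = 8.73e-05). The same direction appeared in the other media: DE(a) exceeded MPS for 17 of 34 genes after DE(b) medium and for 15 after PM medium, with 0 and 1 lower. Of all tested genes 3.02% were higher and 2.57% lower after DE(b), and 2.54% and 0.95% after PM.

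SNAI and ZEB repressors bind the E-box CACCTG, or CAGGTG on the other strand, and the 250 bases upstream of transcription starts (RefSeq, GRCh38.p14) were searched for these letters. The letters were in 17.5% of all 27305 promoters in the table and 16.3% of the 12272 of tested genes. They were in 26.9% of the 1124 of genes called higher and 12.9% of the 715 of genes called lower. Of the 34 tested epithelial genes 20 had a promoter in the table, CDH1, ESRP1 and GRHL2 not among them, and 9 of these (45%) held the letters. The 12 with a gene called higher held them in 4 cases (33.3%) and the other 8, most of which were not called either way, in 5 cases (62.5%). A match is a description of the sequence and not evidence of binding. CRB3 and PATJ, higher in DE(a)-LM, and DSP, which fell, are shown for comparison, each on the plus strand from 5′ to 3′ with the matches in capitals. CRB3 (chr19:6464021-6464270) has 5, PATJ (chr1:61742230-61742479) has 2 and DSP (chr6:7541421-7541670) has 2.
CRB3: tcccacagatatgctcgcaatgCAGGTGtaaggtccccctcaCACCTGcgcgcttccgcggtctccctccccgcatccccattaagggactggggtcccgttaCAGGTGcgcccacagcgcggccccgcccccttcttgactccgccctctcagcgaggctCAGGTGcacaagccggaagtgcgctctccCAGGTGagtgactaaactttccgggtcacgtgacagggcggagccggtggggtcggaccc
PATJ: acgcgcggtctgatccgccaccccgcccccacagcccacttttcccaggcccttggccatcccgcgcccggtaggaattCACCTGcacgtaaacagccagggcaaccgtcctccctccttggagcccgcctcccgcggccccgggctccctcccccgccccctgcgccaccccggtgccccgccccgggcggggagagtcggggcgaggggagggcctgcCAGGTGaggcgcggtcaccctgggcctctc
DSP: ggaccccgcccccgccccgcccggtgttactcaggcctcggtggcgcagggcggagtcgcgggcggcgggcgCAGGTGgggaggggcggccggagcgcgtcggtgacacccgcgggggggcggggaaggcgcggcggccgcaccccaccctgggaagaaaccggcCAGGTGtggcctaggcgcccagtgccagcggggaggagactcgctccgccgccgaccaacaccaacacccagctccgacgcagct

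EMT genes showed the reverse for part of their list, with 5 of 17 lower and 1 higher, against 5.27% and 9.09% of tested genes. SNAI2 was at 67.7 and 93.3 CPM in DE(a)-LM and 382 and 252 CPM in MPS-LM (log2 fold change -2.07, SE 0.45, edgeR adjusted p = 0.00269). ZEB2 was at 32.9 and 61.6 CPM in DE(a)-LM and 147 and 162 CPM in MPS-LM (log2 fold change -1.81, SE 0.38, edgeR adjusted p = 0.0019). Both genes encode repressors of CDH1. CDH11, a mesenchymal cadherin, was at 133 and 289.5 CPM in DE(a)-LM and 553 and 718 CPM in MPS-LM (log2 fold change -1.69). SNAI1 did not differ by the test, at 16.1 and 21.6 CPM in DE(a)-LM and 14.9 and 17.4 CPM in MPS-LM (log2 fold change 0.11, SE 0.24, edgeR adjusted p = 0.854), nor did VIM or CDH2. VIM was at 1527 and 2515 CPM in DE(a)-LM and 2059 and 2138 CPM in MPS-LM (log2 fold change -0.16, edgeR adjusted p = 0.846). CDH2, which encodes N-cadherin, was at 211 and 208 CPM in DE(a)-LM and 137 and 188 CPM in MPS-LM (log2 fold change 0.25, edgeR adjusted p = 0.331). FN1, which encodes fibronectin, was the member called higher, at 3749 and 4897 CPM in DE(a)-LM and 1543 and 1409 CPM in MPS-LM, a log2 fold change of 1.45 (SE 0.28, edgeR adjusted p = 0.00101). FN1 had been lower in DE(a) at 24 h, at 215 and 217 CPM against 1871 and 1276 CPM, so its difference changed by 4.32 (edgeR adjusted p = 5.52e-07). Without replicate 1 of DE(a)-LM, the edgeR adjusted p was 0.0595 for SNAI2, 0.0578 for ZEB2 and 0.0845 for CDH11, and 1 of the 17 genes was called lower.

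HOX genes were lower in DE(a)-LM in all 4 clusters, in 8 of 11 tested genes of HOXA, 9 of 10 of HOXB, 4 of 7 of HOXC and 4 of 9 of HOXD. The clusters differed in how much of the signal was left. Summed over the HOXB cluster, levels were 52.8 and 129 CPM in DE(a)-LM and 748 and 845 CPM in MPS-LM. HOXA summed to 1.15 and 1.96 CPM against 30.9 and 78.2 CPM. HOXB2, an anterior member, was at 19.9 and 44.5 CPM in DE(a)-LM and 112 and 114 CPM in MPS-LM (log2 fold change -1.90). HOXB8, farther along the cluster, was at 0.637 and 2.86 CPM in DE(a)-LM and 97.1 and 133 CPM in MPS-LM (log2 fold change -6.08, SE 0.75, edgeR adjusted p = 1.57e-05). HOXB9 was at 3.57 and 12.2 CPM in DE(a)-LM and 115 and 230.5 CPM in MPS-LM (log2 fold change -4.54). HOXB6 was at 5.86 and 20.1 CPM in DE(a)-LM and 126 and 161 CPM in MPS-LM (log2 fold change -3.55). HOXC8 had 0 counts in both DE(a)-LM libraries and 5.09 and 16.2 CPM in MPS-LM, at least 137-fold lower. HOXA13, the most posterior of HOXA and the source of the whole DE(a)-LM sum of that cluster, was at 1.15 and 1.96 CPM in DE(a)-LM and 20.8 and 50.9 CPM in MPS-LM (log2 fold change -4.63, SE 0.63, edgeR adjusted p = 3.14e-05).

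At 24 h, 21 of the 37 tested genes were already lower in DE(a), against 5.62% of all tested genes. HOXB then summed to 1.66 and 1.07 CPM in DE(a)-24h against 258 and 232 CPM in MPS-24h. On the DE(a) route HOXB genes rose in LM medium, HOXB2 from 0.259 and 0.0537 CPM and HOXB9 from 0.363 and 0.322 CPM. The change in the difference was called positive for 6 HOX genes and negative for 0, against 6.26% and 2.49% of all tested genes. Among the 6 were HOXB6, which had 0 counts in both DE(a)-24h libraries, and HOXB2 (change 5.55, edgeR adjusted p = 0.000204). The CDX factors, upstream activators of HOX genes, were lower in 2 of 3 cases. CDX2 was at 0.318 and 0.477 CPM in DE(a)-LM and 29 and 43.5 CPM in MPS-LM (log2 fold change -6.57, SE 0.63, edgeR adjusted p = 6.07e-07). CDX1 was at 0 and 0.334 CPM in DE(a)-LM and 1.63 and 1.76 CPM in MPS-LM (log2 fold change -3.23, SE 0.66, edgeR adjusted p = 0.00168). CDX4 stood at 0.637 and 0.146 CPM in DE(a)-LM and 0.582 and 1.95 CPM in MPS-LM and was not called (log2 fold change -1.94, edgeR adjusted p = 0.102). DESeq2 called CDX4 (adjusted p = 0.0326), as did edgeR without replicate 1 of MPS-LM (0.0394), and with only the 4 libraries fitted CDX1 was not called (edgeR adjusted p = 0.0993). Between 17 and 25 HOX genes were called lower in each fit that left out 1 library, and HOXB2 was not called without replicate 1 of DE(a)-LM (edgeR adjusted p = 0.0763). Neighbouring HOX genes overlap, and the sources used here do not state strand-aware quantification for these values.

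**Figure D4:**
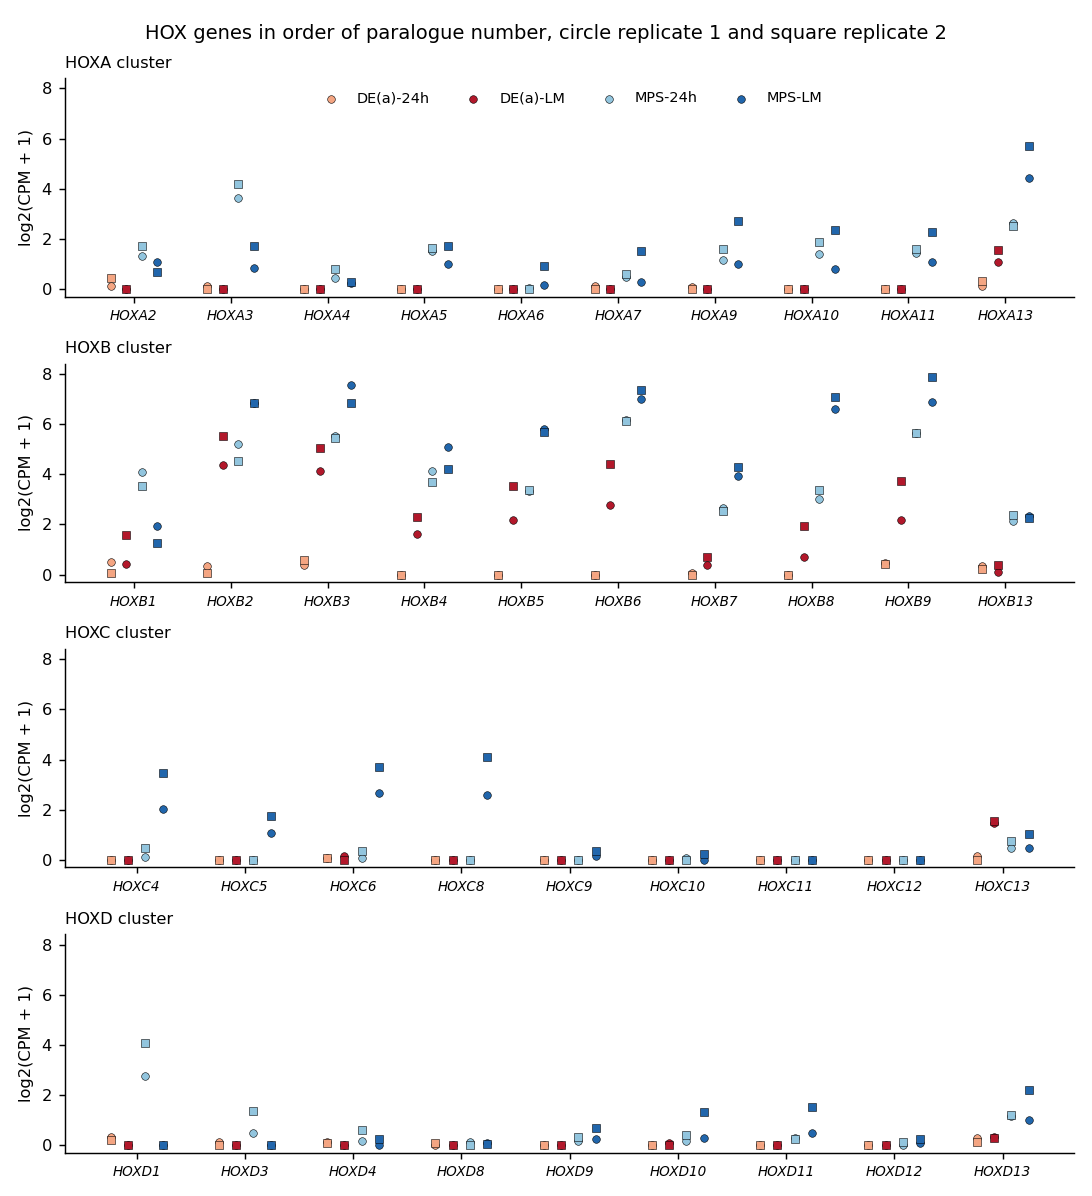
Levels of HOX genes as log2(CPM + 1), by cluster and in order of paralogue number, with a circle for replicate 1 and a square for replicate 2 of DE(a)-24h, DE(a)-LM, MPS-24h and MPS-LM. In HOXB the points of DE(a)-LM lie above those of DE(a)-24h and below those of MPS-LM for most genes, and in HOXA, HOXC and HOXD most lie near 0.

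Both routes met the same BMP4 dose in LM medium, and BMP target genes split. Of 16, 3 were higher and 4 lower, against 9.09% and 5.27% of all tested genes. The inhibitors of differentiation ID1 and ID4 were higher in DE(a)-LM. ID1 was at 363 and 285 CPM in DE(a)-LM and 85.9 and 108 CPM in MPS-LM (log2 fold change 1.62, SE 0.47, edgeR adjusted p = 0.0208), with 66.3 and 62.4 CPM in the control. ID4 was at 238 and 211 CPM in DE(a)-LM and 52.4 and 58.6 CPM in MPS-LM (log2 fold change 1.90, SE 0.41, edgeR adjusted p = 0.00234). GATA3, a factor of amnion and trophoblast, was higher too, at 129 and 140.1 CPM in DE(a)-LM and 36.2 and 63.1 CPM in MPS-LM (log2 fold change 1.31, edgeR adjusted p = 0.0199). MSX1, a homeobox target, was lower at 5.82 and 15.8 CPM in DE(a)-LM and 53.9 and 86.2 CPM in MPS-LM (log2 fold change -2.79, SE 0.39, edgeR adjusted p = 3.27e-05). GATA2 was lower at 119 and 196 CPM in DE(a)-LM and 459 and 344 CPM in MPS-LM (log2 fold change -1.44). SMAD9 was lower at 60.8 and 66.8 CPM in DE(a)-LM and 111 and 173 CPM in MPS-LM (log2 fold change -1.27), and TBX3 fell as given above. At 24 h, when MPS cells alone had received BMP4, 11 of the 16 were lower in DE(a) and 0 higher, against 5.62% and 3.35% of all tested genes. The change in the difference was positive for 9 and negative for 0, against 6.26% and 2.49% of all tested genes. From 24 h to 48 h, 13 rose and 1 fell after DE(a), and 6 rose and 2 fell after MPS, where 17% of all tested genes rose and 15.2% fell after DE(a) and 14.4% rose and 16.9% fell after MPS. ID1 was not called without replicate 1 of DE(a)-LM (edgeR adjusted p = 0.12), without replicate 1 of MPS-LM (0.165) or without replicate 2 of MPS-LM (0.0887). GATA3 was not called without replicate 1 (0.0628) or 2 (0.107) of DE(a)-LM or replicate 1 of MPS-LM (0.238). BMP targets numbered 1, 2, 1 and 2 higher and 2, 4, 4 and 4 lower with replicates 1 and 2 of DE(a)-LM and then 1 and 2 of MPS-LM each left out in turn. Without replicate 1 of DE(a)-LM GATA2 (edgeR adjusted p = 0.0831) and TBX3 (0.0763) were not called.

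Among BMP ligands and their modulators, 6 of 18 were higher and 2 lower, against 9.09% and 5.27% of all tested genes. Their calls numbered 1, 3, 1 and 3 higher and 0, 2, 2 and 1 lower with replicates 1 and 2 of DE(a)-LM and then 1 and 2 of MPS-LM each left out in turn. Beside BMP4, GDF6 was lower, at 0.637 and 2.15 CPM in DE(a)-LM and 4.31 and 12.1 CPM in MPS-LM (log2 fold change -2.65, edgeR adjusted p = 0.0244). BMP2 was higher at 118 and 123 CPM in DE(a)-LM and 31.3 and 50.5 CPM in MPS-LM (log2 fold change 1.43, SE 0.28, edgeR adjusted p = 0.00098). BMP5 was higher at 16.8 and 24.6 CPM in DE(a)-LM and 6.41 and 4.8 CPM in MPS-LM (log2 fold change 1.79). BMP6 was higher at 11.5 and 14.5 CPM in DE(a)-LM and 1.36 and 4.63 CPM in MPS-LM (log2 fold change 1.98). BMP5 was not called in any of the 4 fits that left out a library (adjusted p from 0.0639 to 0.267), and BMP6 was not in 3 of them. GDF6 was not called without replicate 1 of DE(a)-LM (edgeR adjusted p = 0.239) or replicate 2 of MPS-LM (0.325).

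Nodal pathway genes, whose receptors A8301 blocks, were higher in 5 of 17 cases and lower in 1, against 9.09% and 5.27% of all tested genes. Nodal pathway genes called numbered 2, 4, 2 and 3 higher with replicates 1 and 2 of DE(a)-LM and then 1 and 2 of MPS-LM each left out in turn. CFC1, a nodal co-receptor with a near-identical copy in the genome that makes its value uncertain, was at 178 and 199 CPM in DE(a)-LM and 14.4 and 7.55 CPM in MPS-LM (log2 fold change 4.01, SE 0.81, edgeR adjusted p = 0.00132). The ligand GDF3 was at 2.7 and 5.3 CPM in DE(a)-LM and 0.116 and 0.38 CPM in MPS-LM (log2 fold change 3.82, SE 0.68, edgeR adjusted p = 0.000463). WNT feedback targets were higher in 4 of 16 cases and lower in 3, in a medium that held IWP2. SP8 and SP5, zinc finger factors induced by WNT, were both higher. SP8 was at 21.4 and 22.4 CPM in DE(a)-LM and 0.0582 and 0.332 CPM in MPS-LM (log2 fold change 6.57). SP5 was at 25.4 and 29.1 CPM in DE(a)-LM and 2.38 and 2.34 CPM in MPS-LM (log2 fold change 3.42). The R-spondin receptor LGR5 was at 19.8 and 18.1 CPM in DE(a)-LM and 2.27 and 0.285 CPM in MPS-LM (log2 fold change 3.86). The nuclear factor LEF1 was lower, at 68.4 and 154 CPM in DE(a)-LM and 382 and 327 CPM in MPS-LM (log2 fold change -1.77, SE 0.30, edgeR adjusted p = 0.000213), as was the antagonist DKK1 (log2 fold change -2.74). LGR5 had been lower in DE(a) at 24 h (log2 fold change -4.47). The WNT feedback list as a whole had 10 genes lower and 0 higher then, against 5.62% and 3.35% of all tested genes. It had 7 positive changes of the difference and 0 negative, against 6.26% and 2.49%.

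RSPO2, a secreted amplifier of WNT signaling, was present at 119 and 114 CPM in MPS-LM and at 0 and 0.477 CPM in DE(a)-LM. Its log2 fold change was -8.84 (SE 0.67, edgeR adjusted p = 3.56e-07). Of 14 WNT ligands 3 were lower and 1, WNT2B, was higher (log2 fold change 2.85), against 5.27% and 9.09% of all tested genes. The median log2 fold change of the 14 was 1.26. Without the filter on low counts 5 of them were higher and 3 lower. WNT5B was lower at 4.34 and 8.8 CPM in DE(a)-LM and 37.2 and 75.8 CPM in MPS-LM (log2 fold change -3.21). WNT5A was lower at 41.2 and 54.2 CPM in DE(a)-LM and 158 and 169 CPM in MPS-LM (log2 fold change -1.88). WNT11 was the other that fell (log2 fold change -2.08, edgeR adjusted p = 0.027). WNT11 was not called in any fit that left out 1 of the 4 libraries (adjusted p from 0.0611 to 0.179). Among 18 FGF ligands 4 were higher and 3 lower. FGF ligands called numbered 2, 4, 1 and 2 higher with replicates 1 and 2 of DE(a)-LM and then 1 and 2 of MPS-LM each left out in turn. FGF19 was at 5.74 and 23.1 CPM in DE(a)-LM and 332 and 339 CPM in MPS-LM, a log2 fold change of -4.62 (SE 0.58, edgeR adjusted p = 8.76e-06). FGF3 was at 0.70 and 1.63 CPM in DE(a)-LM and 36 and 12.5 CPM in MPS-LM (log2 fold change -4.44). FGF12, an intracellular relative, was higher at 21 and 14 CPM in DE(a)-LM and 1.96 and 1.61 CPM in MPS-LM (log2 fold change 3.16). FGF-ERK feedback genes were higher in 5 of 16 cases and lower in 2. The phosphatase DUSP4 led the higher genes at 33.2 and 24.2 CPM in DE(a)-LM and 4.3 and 6.81 CPM in MPS-LM (log2 fold change 2.23, SE 0.30, edgeR adjusted p = 1.64e-05). PHLDA1 was at 121 and 155 CPM in DE(a)-LM and 31.2 and 25.9 CPM in MPS-LM (log2 fold change 2.17).

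Markers of other cell types were checked as lists, beside the 9.09% of all tested genes called higher and the 5.27% called lower. Amnion and surface ectoderm genes were higher in 5 of 19 cases and lower in 2, GATA2 and CDX2, both given above. The keratin KRT7 was at 3.5 and 5.78 CPM in DE(a)-LM and 0.291 and 0.332 CPM in MPS-LM (log2 fold change 3.76, edgeR adjusted p = 0.01). The claudin CLDN10 was at 71 and 51.2 CPM in DE(a)-LM and 7.12 and 5.72 CPM in MPS-LM (log2 fold change 3.14, SE 0.43, edgeR adjusted p = 2.52e-05). TFAP2A, at 55.1 and 88.2 CPM in DE(a)-LM and 30.6 and 35.4 CPM in MPS-LM, was not called (log2 fold change 1.01, edgeR adjusted p = 0.0971). The 5 amnion markers, ISL1 and GATA3 among them, summed to 228 and 293 CPM in DE(a)-LM and to 78.8 and 127 CPM in MPS-LM. The whole list showed no such rise, with sums of 522 and 718 CPM in DE(a)-LM and 689 and 629 CPM in MPS-LM. KRT7 was not called without replicate 2 of DE(a)-LM (edgeR adjusted p = 0.0558) or without replicate 1 (0.0865) or 2 (0.0891) of MPS-LM. Between 2 and 4 genes of the list were called higher when 1 library was left out. Primordial germ cell genes were higher in 5 of 9 cases and lower in 0. PRDM1, a repressor of somatic genes, was at 19.1 and 20 CPM in DE(a)-LM and 1.11 and 1.14 CPM in MPS-LM (log2 fold change 4.00, SE 0.52, edgeR adjusted p = 1.33e-05). KIT, a stem cell factor receptor, was at 55.4 and 41 CPM in DE(a)-LM and 3.49 and 3.8 CPM in MPS-LM (log2 fold change 3.60, SE 0.55, edgeR adjusted p = 8.48e-05). TFAP2C was at 16.9 and 14.9 CPM in DE(a)-LM and 2.33 and 1.76 CPM in MPS-LM (log2 fold change 2.85, SE 0.33, edgeR adjusted p = 3.47e-06). SOX17, PRDM1 and KIT are also in the endoderm list. NANOS3, a defining germ cell marker, stood at 0.892 and 0.478 CPM in DE(a)-LM and 0.116 and 0.19 CPM in MPS-LM and was not called. The part of each cell type in these sums was not tested.

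Pluripotency genes were higher in 6 of 14 cases and lower in 0, against 9.09% and 5.27% of all tested genes. Pluripotency genes called numbered 4, 4, 3 and 4 higher with replicates 1 and 2 of DE(a)-LM and then 1 and 2 of MPS-LM each left out in turn. NANOG was at 3.51 and 2.33 CPM in DE(a)-LM and 0.0582 and 0.0474 CPM in MPS-LM (log2 fold change 5.51, SE 1.07, edgeR adjusted p = 0.00103) against 171 and 188 CPM in the control. SOX2 was at 26.5 and 10.6 CPM in DE(a)-LM and 0.64 and 0.333 CPM in MPS-LM (log2 fold change 5.14, SE 0.89, edgeR adjusted p = 0.000312) against 331 and 278 CPM. POU5F1 was at 51.4 and 47.3 CPM in DE(a)-LM and 13.7 and 19.7 CPM in MPS-LM (log2 fold change 1.44, edgeR adjusted p = 0.0295), with 121 and 345 CPM in the control. POU5F1 has near-identical pseudogenes, so its value is uncertain, and it was not called in any fit that left out 1 of the 4 libraries (adjusted p from 0.0738 to 0.224). In the neural list, 5 of 10 tested genes were higher. ZIC2 was at 26.8 and 17.1 CPM in DE(a)-LM and 1.11 and 1.23 CPM in MPS-LM (log2 fold change 4.09). Streak and node cells also express it. The defining markers PAX6 and SOX1 together reached at most 0.127 CPM in any of the 4 libraries. Of the streak genes, SP5 and EOMES were higher and EVX1 and FGF4 lower. TBXT, at 0.828 and 0.525 CPM in DE(a)-LM and 0.291 and 0.569 CPM in MPS-LM, was not called. MIXL1, at 2.84 and 2.67 CPM in DE(a)-LM and 0.814 and 2.76 CPM in MPS-LM, was not called either. EVX1 was not called without replicate 1 (0.106) or 2 (0.0532) of DE(a)-LM or replicate 2 of MPS-LM (0.3) by the edgeR adjusted p. Paraxial mesoderm genes were higher in 3 of 15 cases and lower in 2, beside the same shares of all tested genes. FOXC1 was at 6.22 and 4.36 CPM in DE(a)-LM and 0.291 and 0.38 CPM in MPS-LM (log2 fold change 3.81, SE 0.52, edgeR adjusted p = 2.19e-05). TBX6, at 5.27 and 4.23 CPM in DE(a)-LM and 3.57 and 1.66 CPM in MPS-LM, was not called (edgeR adjusted p = 0.0833). DESeq2 called it (0.0275) and edgeR did without replicate 1 of MPS-LM (0.0145). The segmentation factor MSGN1 had 0 counts in all 4 libraries, which allows up to 3 counts over each group.

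Blood and endothelial genes were higher in 4 of 19 cases and lower in 3, against 9.09% and 5.27% of all tested genes. These calls numbered 2, 2, 2 and 1 higher and 1, 1, 2 and 2 lower with replicates 1 and 2 of DE(a)-LM and then 1 and 2 of MPS-LM each left out in turn. TEK, an angiopoietin receptor, was the most abundant of those called, at 19.8 and 25 CPM in DE(a)-LM and 108 and 131 CPM in MPS-LM (log2 fold change -2.52, SE 0.29, edgeR adjusted p = 3.07e-06). CDH5, a defining endothelial marker, had 0.764 and 0.668 CPM against 0 and 0 CPM in MPS-LM. It was not called in any fit that left out 1 of the 4 libraries (edgeR adjusted p from 0.0709 to 0.187). Of the apelin axis, the receptor APLNR was at 511 and 676 CPM in DE(a)-LM and 1593 and 1718 CPM in MPS-LM (log2 fold change -1.59, SE 0.37, edgeR adjusted p = 0.00505). Its embryonic ligand APELA was at 64.7 and 29 CPM in DE(a)-LM and 0.233 and 0.332 CPM in MPS-LM (log2 fold change 7.19, SE 1.18, edgeR adjusted p = 0.000165), so receptor and ligand differed in opposite directions. The chemokine CXCL12 was at 25.1 and 24.5 CPM in DE(a)-LM and 5.52 and 7.09 CPM in MPS-LM (log2 fold change 1.86). Without replicate 1 of DE(a)-LM the edgeR adjusted p of APLNR was 0.0895.

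Matrix genes differed in both directions. Of 44 collagen genes 8 were higher and 8 lower, against 9.09% and 5.27% of all tested genes. Collagens called numbered 6, 6, 6 and 5 higher with replicates 1 and 2 of DE(a)-LM and then 1 and 2 of MPS-LM each left out in turn. The fibrillar collagen COL1A1 was at 262 and 396 CPM in DE(a)-LM and 1502 and 928 CPM in MPS-LM (log2 fold change -1.98, SE 0.33, edgeR adjusted p = 0.00022). The basement membrane collagen COL4A1 was at 634 and 549 CPM in DE(a)-LM and 1350.0 and 1605 CPM in MPS-LM (log2 fold change -1.44, SE 0.24, edgeR adjusted p = 0.000217). COL3A1 was at 1.47 and 6.25 CPM in DE(a)-LM and 62 and 36.4 CPM in MPS-LM (log2 fold change -3.71). COL2A1, a collagen of notochord and cartilage, was higher at 74.5 and 72.8 CPM in DE(a)-LM and 10.2 and 9.4 CPM in MPS-LM (log2 fold change 2.80, SE 0.37, edgeR adjusted p = 1.46e-05). COL9A2 was higher at 289 and 286 CPM in DE(a)-LM and 85.1 and 67.9 CPM in MPS-LM (log2 fold change 1.80). COL23A1 (log2 fold change 3.22), COL13A1 (log2 fold change 2.75) and COL6A3 (log2 fold change -3.59) also differed. The laminin subunits LAMB1 and LAMC1 fell with the type IV collagen. LAMB1 was at 256 and 281 CPM in DE(a)-LM and 747 and 670.2 CPM in MPS-LM (log2 fold change -1.51, SE 0.17, edgeR adjusted p = 2.78e-06). LAMC1 was at 361 and 589 CPM in DE(a)-LM and 1125 and 1269 CPM in MPS-LM (log2 fold change -1.44). Among integrins, ITGA3 was higher at 31.2 and 29.9 CPM in DE(a)-LM and 4.02 and 3.94 CPM in MPS-LM (log2 fold change 2.83). ITGB8 was lower at 5.41 and 6.35 CPM in DE(a)-LM and 37 and 33.8 CPM in MPS-LM (log2 fold change -2.69). HAS2, the main hyaluronan synthase of the embryo, was at 528 and 618 CPM in DE(a)-LM and 167 and 175 CPM in MPS-LM (log2 fold change 1.63, SE 0.32, edgeR adjusted p = 0.000941). HAPLN1, which links hyaluronan to proteoglycans, was at 32.4 and 95.2 CPM in DE(a)-LM and 325 and 491 CPM in MPS-LM (log2 fold change -2.78).

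In the adhesion and guidance lists more genes were called higher than lower, as among all 2570 called genes (63.3% higher). Of all tested genes 9.09% were higher and 5.27% lower. Cadherins were higher in 8 of 19 cases and lower in 3. Cadherins called numbered 5, 6, 6 and 6 higher and 1, 3, 3 and 2 lower with replicates 1 and 2 of DE(a)-LM and then 1 and 2 of MPS-LM each left out in turn. CDH3, or P-cadherin, was at 113 and 119 CPM in DE(a)-LM and 35.2 and 27.5 CPM in MPS-LM (log2 fold change 1.78, SE 0.20, edgeR adjusted p = 2.2e-06). CDH12 was at 6.24 and 5.52 CPM in DE(a)-LM and 0.174 and 0 CPM in MPS-LM (log2 fold change 5.97). CDH8 was at 17.9 and 10.5 CPM in DE(a)-LM and 1.49 and 0.996 CPM in MPS-LM (log2 fold change 3.39). CDH11, given above and more abundant than CDH3, went the other way. Summed over the cadherin list, levels were 763 and 943 CPM in DE(a)-LM and 886 and 1102 CPM in MPS-LM. The protocadherin PCDH1 was at 48.6 and 52.2 CPM in DE(a)-LM and 5.37 and 6.67 CPM in MPS-LM (log2 fold change 2.95, SE 0.55, edgeR adjusted p = 0.00064). Ephrins and their receptors were higher in 11 of 22 cases and lower in 2. Ephrin genes called numbered 10, 6, 7 and 7 higher with replicates 1 and 2 of DE(a)-LM and then 1 and 2 of MPS-LM each left out in turn. EPHA4 was at 50.7 and 53.1 CPM in DE(a)-LM and 7.81 and 4.83 CPM in MPS-LM (log2 fold change 2.94, SE 0.36, edgeR adjusted p = 5.7e-06). EPHA6 was at 3.25 and 1.91 CPM in DE(a)-LM and 0.0582 and 0.0474 CPM in MPS-LM (log2 fold change 5.34). EPHA7, 1 of the 2 that were lower, was at 16.4 and 30.3 CPM in DE(a)-LM and 457 and 308 CPM in MPS-LM (log2 fold change -4.12, SE 0.42, edgeR adjusted p = 8.08e-07). EPHA7 had been higher in DE(a) at 24 h, at 23.7 and 39.5 CPM against 6.69 and 11.4 CPM, and rose by 5.39 log2 units in MPS cells under LM medium. Semaphorins, plexins and neuropilins were higher in 11 of 31 cases and lower in 1. PLXNA4 was at 20.6 and 24.9 CPM in DE(a)-LM and 2.15 and 1.85 CPM in MPS-LM (log2 fold change 3.40). SEMA6B was at 95.5 and 77.3 CPM in DE(a)-LM and 9.58 and 7.55 CPM in MPS-LM (log2 fold change 3.22).

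The remaining lists are set against the 14.4% of all tested genes that were called. The shares were 9.09% for cell cycle, 5.88% for cholesterol synthesis, 13.3% for contractile and 25% for glycolysis and hypoxia genes. Of 22 cell cycle genes, 20 were not called. CCND1 was lower, at 119 and 115 CPM in DE(a)-LM and 307 and 382 CPM in MPS-LM (log2 fold change -1.67, SE 0.17, edgeR adjusted p = 7.89e-07). CCND2 was higher, at 148 and 84 CPM in DE(a)-LM and 53.1 and 37 CPM in MPS-LM (log2 fold change 1.25), though not called without replicate 1 of DE(a)-LM (edgeR adjusted p = 0.0557). Of 17 cholesterol synthesis genes 1 was called. Of 15 contractile genes 2 were called, ACTC1 and CALD1, both lower, with CALD1 at 393 and 364 CPM in DE(a)-LM and 889 and 1065 CPM in MPS-LM (log2 fold change -1.48). Glycolysis and hypoxia genes were higher in 4 of 24 cases and lower in 2. The peptide ADM was at 48.7 and 23 CPM in DE(a)-LM and 1.57 and 1.83 CPM in MPS-LM (log2 fold change 4.25, SE 0.66, edgeR adjusted p = 9.82e-05). The angiogenic factor VEGFA was at 135 and 117 CPM in DE(a)-LM and 45.1 and 38.8 CPM in MPS-LM (log2 fold change 1.48, SE 0.32, edgeR adjusted p = 0.00236). Retinoic acid genes were higher in 3 of 16 cases and lower in 2. Notch genes were higher in 5 of 14 and lower in 0. Notch genes called numbered 2, 4, 3 and 3 higher with replicates 1 and 2 of DE(a)-LM and then 1 and 2 of MPS-LM each left out in turn. The glycosyltransferase LFNG was at 15.1 and 16 CPM in DE(a)-LM and 0.524 and 1.28 CPM in MPS-LM (log2 fold change 3.94, SE 0.42, edgeR adjusted p = 1.01e-06). PEG10, a retrotransposon-derived imprinted gene, stood at 2329.7 and 2484 CPM in DE(a)-LM and 322 and 359 CPM in MPS-LM, a log2 fold change of 2.71 (SE 0.22, edgeR adjusted p = 7.45e-08). It did not differ by the test at 24 h, at 140.0 and 141 CPM and 134 and 148 CPM (log2 fold change 0.00, edgeR adjusted p = 1). Its DE(a)-LM mean was the highest of the 17 conditions. Other levels were 710.2 and 729 CPM in APS-LM, 286 and 356 CPM in PPS-LM and 289.7 and 305 CPM in the control.

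Among genes with at least 10 CPM in either condition, the largest rises beyond those already named were genes of several kinds. SHISA3, a secretory pathway inhibitor of WNT receptors, had 236 and 235 CPM in DE(a)-LM and 0 and 0.142 CPM in MPS-LM. The ratio was 2998-fold (exact 95% interval 1025 to 14539.9), an interval that covers counting error only. SHISA3 was at 2.85 and 1.99 CPM at 24 h. KLHL14 was at 13 and 16 CPM in DE(a)-LM and 0.0582 and 0.0474 CPM in MPS-LM. PSKH2 was at 9.49 and 11.3 CPM in DE(a)-LM and 0 and 0.0474 CPM in MPS-LM. The homeobox gene IRX1 was at 11.8 and 10.6 CPM in DE(a)-LM and 0.0582 and 0.237 CPM in MPS-LM (log2 fold change 6.01, SE 1.05, edgeR adjusted p = 0.000371). LHX1, a LIM homeobox factor of the node and anterior mesendoderm, was at least 129-fold higher under an identifier that GENCODE 44 does not hold, at 12.1 and 8.59 CPM. Under its chromosome 17 identifier it was at 1.28 and 2.2 CPM in DE(a)-LM and 0.465 and 0.617 CPM in MPS-LM and was not called, although it was with the identifiers summed (edgeR adjusted p = 4.72e-05). Differences at single identifiers of KIAA1147, ABR, EHMT2 and CDK7 met the size rule as well but are uncertain, since reads can be split between the copies of each. CDK7 and EHMT2 differed by 0.07 and 0.10 log2 units once their identifiers were summed, and the 2 identifiers of KIAA1147 went in opposite directions.

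The largest falls beside HOX, RSPO2, CDX2 and PRRX1 included CCN4, a matricellular WNT target, at 0.891 and 1.58 CPM in DE(a)-LM and 167 and 93.1 CPM in MPS-LM (log2 fold change -6.78, SE 0.82, edgeR adjusted p = 6.91e-06). SLA, an adaptor of receptor signaling, was at 0.127 and 0 CPM in DE(a)-LM and 23.4 and 15.6 CPM in MPS-LM. MASP1, a complement protease, was at 1.72 and 2.77 CPM in DE(a)-LM and 130.4 and 44.6 CPM in MPS-LM (log2 fold change -5.35, SE 0.76, edgeR adjusted p = 3.6e-05). SAMD5 was at 0.319 and 0.764 CPM in DE(a)-LM and 18 and 19.2 CPM in MPS-LM (log2 fold change -5.15). RGS1, ODAM and the zinc transporter SLC39A2 had 0 counts in all 4 libraries at 24 h. RGS1 was then at 0.255 and 1.86 CPM in DE(a)-LM and 50 and 35.5 CPM in MPS-LM. ODAM was at 0.446 and 1.25 CPM in DE(a)-LM and 37.1 and 27 CPM in MPS-LM. SLC39A2 was at 1.21 and 2.45 CPM in DE(a)-LM and 53.2 and 60.3 CPM in MPS-LM. All 3 were called by edgeR, and DESeq2 did not call RGS1 (adjusted p = 0.783).

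The same day 1 routes were compared at 24 h and after the other media, in libraries that the LM comparison does not use. At 24 h, DE(a) differed from MPS in 1605 genes (8.97% of those tested), 600 higher and 1005 lower, so the balance of directions was the reverse of that in LM. The LM and 24 h comparisons shared 623 called genes, of which 473 went the same way, 18.4% of the genes called in LM and 29.5% of those called at 24 h. The other 150 went opposite ways, 127 of them higher in DE(a) in LM and lower at 24 h. Across 17895 genes the log2 fold changes had a Pearson r of 0.148, a description with no test, since genes are not independent. After DE(b) medium, DE(a) differed from MPS in 1000 genes (5.59%), and 441 went the same way as in LM, 17.2% of the LM calls and 44.1% of the DE(b) calls. After PM medium 625 genes (3.49%) differed, with 339 the same way, 13.2% and 54.2%. These counts were sensitive to single libraries. At 24 h 967 genes were called without replicate 1 of DE(a)-24h, and 928 and 1031 without replicates 1 and 2 of MPS-24h. After DE(b) medium there were 503 without replicate 2 of DE(a)-DE(b), and 497 and 479 without replicates 1 and 2 of MPS-DE(b). After PM medium there were 165 without replicate 1 of DE(a)-PM and 292 and 191 without replicates 1 and 2 of MPS-PM, and 5 with only the 4 libraries of that comparison fitted.

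The change of the difference was tested directly. From 24 h to LM it was called for 1566 genes (8.75%), 1121 positive and 445 negative. Against DE(b) medium it was called for 915 genes (5.11%), 3.42% of tested genes positive and 1.69% negative, and against PM medium for 676 (3.78%). From 24 h to LM the count was 1041 without replicate 1 of DE(a)-24h and 1041 without replicate 2 of MPS-24h. Against PM medium it was 356 and 434 without replicate 1 of DE(a)-LM and replicate 2 of MPS-LM, and 439 and 429 without replicates 1 and 2 of MPS-PM. Endoderm genes were positive against 24 h in 6 of 20 cases and negative in 0, against 6.26% and 2.49% of all tested genes. HAND1 was positive against DE(b) medium by 7.70 (edgeR adjusted p = 0.00111). PEG10 was positive against DE(b) and PM medium by 3.22 and 2.96 (edgeR adjusted p = 8.2e-07 and 7.92e-06), where it was not called (log2 fold changes -0.51 and -0.25). CDX2 was negative against PM medium by -6.40 (edgeR adjusted p = 5.29e-05), where CDX2 was not called (log2 fold change -0.17, edgeR adjusted p = 0.997).

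**Figure D5:**
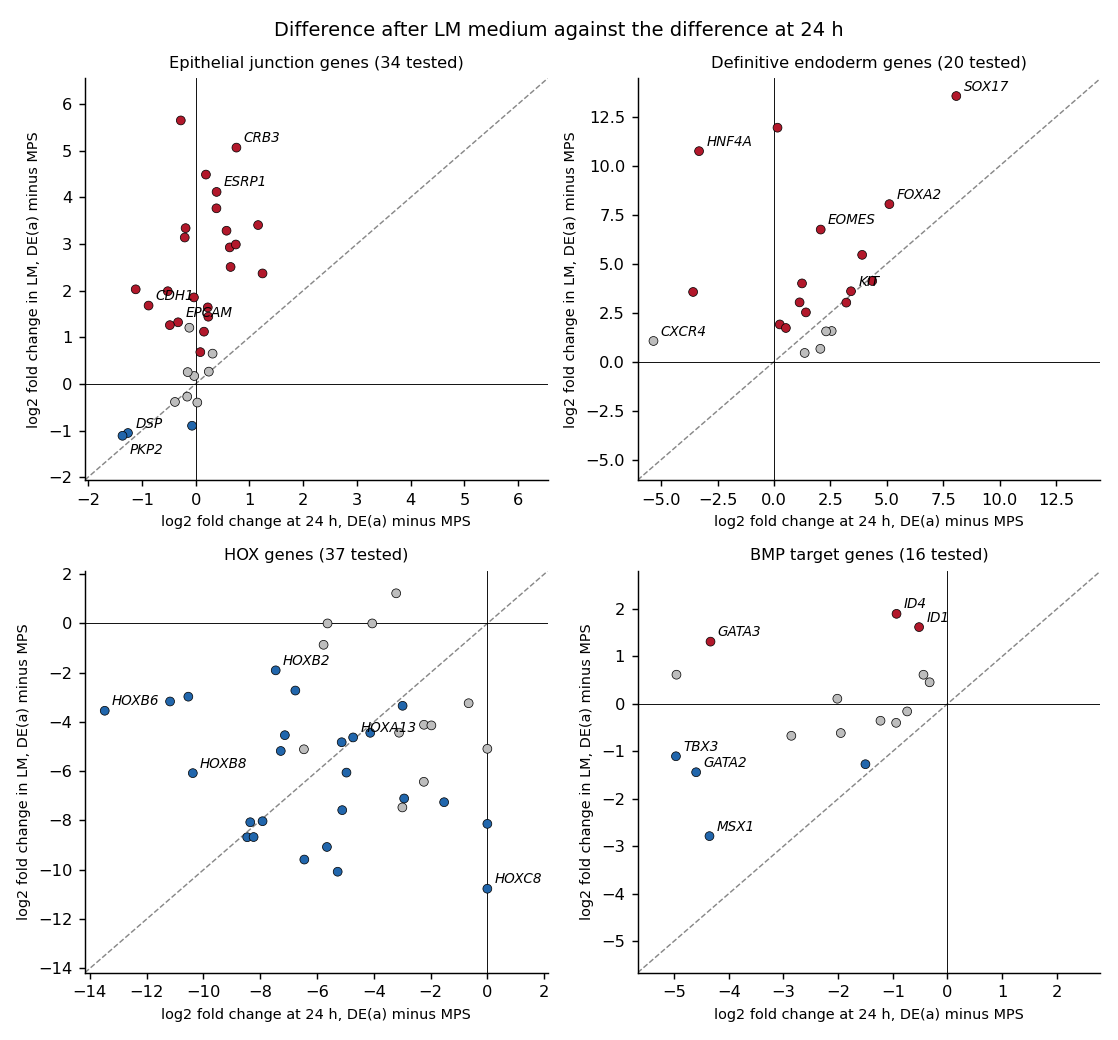
For the members of 4 gene lists, the log2 fold change of DE(a) minus MPS at 24 h is on the x axis and that after LM medium on the y axis, red where called higher in LM, blue where called lower and grey where not called, with the dashed line marking equal differences. Epithelial genes lie near 0 on the x axis and mostly above 0 on the y axis, BMP targets lie above the dashed line, endoderm genes are above 0 in LM, and most HOX genes are spread at or below 0 on both axes.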

How the data were processed

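RNA sequencing of ESI017 cells was quantified by the authors with Salmon (version 1.10.2 in the submitters' notes) on GRCh38 and deposited as estimated counts per gene in 34 libraries of 17 conditions, 15522780 to 23439799 counts each. The 37951 identifiers were rounded to whole counts here. edgeR 4.0.16 in R 4.3.3 (TMM scaling, filterByExpr by condition, 17895 genes tested, quasi-likelihood fit with 1 mean per condition and no covariate, 17 residual degrees of freedom) tested DE(a)-LM against MPS-LM, the same routes at 24 h and after DE(b) and PM medium, and the changes of these differences, with Benjamini-Hochberg adjustment at 0.05. Alternatives were other size factors, no filter, DESeq2 1.42.0, only the libraries compared, a replicate block, a fold change of at least 1, leaving out each library, and summed identifiers, the last chosen after seeing the data. Levels are CPM of library totals. Counts of 0 in a group were set at 3 counts for fold bounds, and ratio intervals (95%, exact) cover counting error only. The fit was also run on counts simulated from its own fitted spread, with no replicate effect. That run cannot show how the model handles deviations shared by same-numbered libraries. The 41 gene lists and the named genes were chosen with earlier results of these data known. Named were the 15 highest and 15 lowest called genes whose mean reached 10 CPM in either condition, with non-overlapping libraries, list members by size, the 5 largest changes of difference in each direction, and the study's markers, and others were chosen after their values were seen. Coordinates are from GENCODE 44 and promoters from RefSeq (GRCh38.p14). Several named genes with more than 1 identifier are marked as uncertain. A few genes are not reported here.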

Additional observations from a re-analysis of the deposited data

Results flagged for a closer look

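The difference between the routes was itself different, by the interaction test of edgeR, for 1566 genes between LM medium and 24 h, for 915 between LM and DE(b) medium and for 676 between LM and PM medium. The genes below are among the 5 largest of each sign, in log2 units, under the same rule of level.

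From 24 h to LM the difference rose for HNF4A (14.08), AMER2 (11.26), HOXB6 (9.93), PSKH2 (9.51) and DLL1 (8.73), and fell for SLA (-13.96), CDK7 (-13.40), CYP26A1 (-7.58), EPHA7 (-5.94) and TMEM229A (-5.79). AMER2, which restrains WNT signaling at the membrane, was at 18.4 and 17.7 CPM in DE(a)-LM and 1.45 and 0.475 CPM in MPS-LM and had 0 counts in both DE(a)-24h libraries, while CYP26A1, which degrades retinoic acid, went from 168 and 82.4 CPM in DE(a)-24h and 5.28 and 4.32 CPM in MPS-24h to 4.58 and 2.36 CPM in DE(a)-LM and 19.5 and 26.5 CPM in MPS-LM. DLL1, a Notch ligand, had been at 41.3 and 68.3 CPM in MPS-24h and 1.4 and 0 CPM in DE(a)-24h. DLL1 has 2 identifiers, so its value is uncertain. In LM it was called with them summed (edgeR adjusted p = 0.0217) but not at the single identifier. HNF4A had 0 counts in both MPS-LM libraries, AMER2 and HOXB6 in both of DE(a)-24h and SLA in both of MPS-24h, so the sizes of these values depend on the prior count.

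Relative to DE(b) medium the difference was higher for GYPE (19.65), GYPB (16.69) and SOX17 (13.87), and lower for CDK7 (-14.34), EHMT2 (-14.01), SLA (-12.47), HOXC8 (-11.50) and FGF19 (-7.86). GYPB and GYPE are near-identical genes between which reads can be split, so both are uncertain. CDK7 and EHMT2 are uncertain for the same reason, with several identifiers each. The values of GYPE, GYPB, SOX17, EHMT2, SLA and HOXC8 rest on a group with 0 counts in both libraries and depend on the prior count.

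Relative to PM medium the difference was higher for ABR (15.81), HNF4A (9.85), CD8B (7.55), SHISA3 (6.99) and PSKH2 (6.15), and lower for SORBS2 (-6.46), CDX2 (-6.40), URAD (-6.36) and MASP1 (-6.08). CD8B reached 0.764 and 0.0955 CPM in DE(a)-LM, and was not called in LM without replicate 1 of DE(a)-LM (edgeR adjusted p = 0.365). The values of ABR, HNF4A, CD8B and URAD rest on such a group too. SORBS2 was at 1.85 and 1.77 CPM in DE(a)-LM and 1.16 and 1.76 CPM in MPS-LM and was not called there. No group held 4 samples, so no sample was tested as an outlier.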

How the results depend on the processing

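In LM medium 2570 genes were called, 2560 with DESeq2-style size factors, 2845 without the filter on low counts, 2940 with DESeq2, 2682 with identifiers of a symbol summed, 1719 with only the 4 libraries fitted and 1832 with a log2 fold change of at least 1, all within 1.5 times. Leaving out 1 library gave 1470 to 1926 genes in LM medium, 928 to 1167 at 24 h, 1041 to 1290 for the change from 24 h, 479 to 781 in DE(b) medium, 165 to 663 in PM medium, 631 to 744 for LM against DE(b) and 356 to 593 for LM against PM. The low end for LM medium came without replicate 2 of MPS-LM (1470) and replicate 1 of DE(a)-LM (1521). Without the filter 1713 genes were called in DE(b) medium, 1254 in PM medium, 1484 for LM against DE(b) and 1307 for LM against PM. With only the libraries compared fitted the counts were 548 in DE(b) medium, 5 in PM medium and 169 for LM against PM, and with a fold change of at least 1, 1068 at 24 h. The cause of these shifts was not tested. Of 150 called named genes 117 kept their call in every fit that left out 1 library and 114 in every setting. Direction reversed for 2 multi-identifier genes once identifiers were summed, CDK7 (0.0668) and EHMT2 (0.0982), and otherwise only among named genes not called: without replicate 1 of MPS-LM CDH2 (-0.0138), GATA4 (-0.26), MIXL1 (-0.16), PAX2 (-0.19), SNAI1 (-0.04) and SORBS2 (-0.13), without replicate 2 of DE(a)-LM GATA4 (-0.31) and SNAI1 (-0.17), without replicate 2 of MPS-LM NKX2-5 (0.37) and without replicate 1 of DE(a)-LM VIM (0.18). Over the 4 fits that left out a library these ranged up to 0.51 for CDH2, 0.58 for GATA4, 1.66 for MIXL1, 2.55 for PAX2, 0.33 for SNAI1 and 0.53 for SORBS2, and down to -1.63 for NKX2-5 and -0.62 for VIM. Neither labels nor study say that a replicate number marks a shared day or batch, though each number has its own deposited table. Over 136 pairs of conditions the correlation of same-numbered deviations ran from -0.17 to 0.53 (median 0.14), above 0.1 in 88 pairs and under -0.1 in 2, and it was 0.18 for DE(a)-LM with MPS-LM. Same-numbered libraries thus tended to deviate together. The main fit had no replicate block since the correlation was not above 0.1 in every pair. That rule cannot decide whether the numbers mark pairs. With the replicate block 3104 genes were called in LM medium, 2569 of the 2570 among them. Depth limits genes near 0, where 3 counts over a group set the bounds.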
